A study of Mus musculus with 2 samples.

Results

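The genes described here are 8 transcription factors of the γδ T cell lineage, Maf, Rora, Zbtb16, Sox13, Sox4, Sox5, Runx3 and Etv5. They were taken as a fixed list of gene names, and all 8 were found once among the 33696 genes of the count matrices. Their transcripts were counted in single cells of the lung from 1 library labelled GFI1 KO (the KO library) and 1 labelled WT (the WT library). Both libraries came from lungs of adult mice on the C57BL6/J background that were dissociated enzymatically, and live cells were sorted before capture with the 10x Genomics 3′ chemistry. The study describes the GFI1 KO allele as germline, so it is carried by all cell types of the lung and not by lymphocytes alone. No Cre line or treatment is named for these libraries. The study's methods describe 2 samples per genotype, 1 of each was analysed here, and the titles name a single mouse for each library. Nothing below was tested, no spread over mice is known, and genotype, mouse and library cannot be told apart.

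γδ T cells leave the thymus already committed to one of several effector programs and settle in tissues such as the lung. The HMG-box factors SOX13 and SOX4 and the bZIP factor c-MAF (Maf) are known to act in the development of γδ T cell subsets, while PLZF (Zbtb16) marks innate-like T cells that settle in tissues. GFI1 is a zinc-finger repressor that binds DNA at sites with an AATC core.

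Of the 8 factors, 6 had at least 1 start site in the RefSeq promoter table used here (GRCm38.p6, not the GRCm39 build of the counts), and Maf and Zbtb16 had none. The 250 bases before the start site are shown for the 4 factors with a single listed start, with each AATC, or its reverse complement GATT, in capitals. All 4 are read 5′ to 3′ in the direction of the gene. The Sox13 window is chr1:133424213-133424462, minus strand. The Rora window is chr9:68653536-68653785, plus strand. The Sox4 window is chr13:28953700-28953949, minus strand. The Sox5 window is chr6:143947107-143947356, minus strand.
Sox13: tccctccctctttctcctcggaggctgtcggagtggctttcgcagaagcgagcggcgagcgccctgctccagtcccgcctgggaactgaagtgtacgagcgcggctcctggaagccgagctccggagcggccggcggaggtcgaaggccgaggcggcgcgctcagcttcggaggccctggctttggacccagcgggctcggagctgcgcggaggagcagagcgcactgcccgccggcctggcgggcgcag
Rora: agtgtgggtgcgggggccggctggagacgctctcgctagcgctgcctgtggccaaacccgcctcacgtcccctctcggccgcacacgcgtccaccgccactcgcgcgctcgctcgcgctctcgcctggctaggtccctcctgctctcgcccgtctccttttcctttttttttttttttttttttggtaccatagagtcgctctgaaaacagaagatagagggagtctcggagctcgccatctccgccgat
Sox4: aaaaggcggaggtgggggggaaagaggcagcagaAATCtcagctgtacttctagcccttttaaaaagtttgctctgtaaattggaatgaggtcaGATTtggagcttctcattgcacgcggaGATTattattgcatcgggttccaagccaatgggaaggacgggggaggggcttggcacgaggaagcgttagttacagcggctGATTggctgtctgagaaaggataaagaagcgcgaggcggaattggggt
Sox5: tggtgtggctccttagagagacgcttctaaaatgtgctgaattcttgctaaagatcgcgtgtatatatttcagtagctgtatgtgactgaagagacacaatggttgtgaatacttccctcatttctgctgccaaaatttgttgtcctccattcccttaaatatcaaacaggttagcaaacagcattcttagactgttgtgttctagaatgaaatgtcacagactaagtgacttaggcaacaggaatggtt
The Sox4 window held 4 matches and the other 3 windows held 0. Among the 32851 windows of the same length in the table, 69.0% held at least 1 match. The longer string AAATCA, or TGATTT on the other strand, was in 0 of the 4 windows and in 12.4% of all windows. Etv5 and Runx3, with 2 listed starts each, had 1 AATC match in every window. A match is a string of letters only, and no binding was measured in these files.

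The files held 10700 called cells in the KO library and 19515 in the WT library, of which 10495 and 19342 passed the filters, with medians of 11076 and 6217 UMIs (unique molecular identifiers, 1 per captured transcript). The libraries stood apart in their makeup, since monocyte-like cells were 45.7% of the cells in the KO library and 2.17% in the WT library. This class held a cluster of 1956 cells in the KO library and 6 in the WT library. Its leading genes included the granule genes Lcn2, Prtn3, Elane and Mmp8, and 3 of 7 neutrophil markers were raised beside 6 of 8 monocyte markers. The libraries shared 74 barcodes, 0.705% and 0.383% of the cells kept. Gfi1 itself gave 340 and 470 UMIs in all cells, which does not check the labels because a disrupted allele can still be transcribed. Within the T cell clusters, a cell that held Trdc but none of Cd4, Cd8a and Cd8b1 is called a Trdc-positive T cell. There were 94 in the KO library and 110 in the WT library, of which 88 and 76 held at least 2 Trdc UMIs. The median depth of all Trdc-positive T cells was 6588 and 6519 UMIs, so the 2 sets of cells were read about equally deep. The other T cells were split into Foxp3-positive (26 and 61 cells), CD4 (95 and 527), CD8 (403 and 1239) and remaining T cells (230 and 749), and the other classes carry a name ending in "-like" from their marker genes. In Trdc-positive T cells all 8 T cell markers were detected in both libraries. All 8 γδ receptor genes, with Trdc present by the gate, were detected too, summing to 3060.4 CPM in the KO library and 1256 CPM in the WT library. The αβ receptor genes, with Cd4, Cd8a and Cd8b1 at 0 by the gate, summed to 1152 and 1683 CPM, so in the WT library they exceeded the γδ sum. At least 30 UMIs of the CD4 or CD8a antibody tag were found on 4 of the 94 cells in the KO library and 19 of the 110 in the WT library.

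Levels are UMIs of a gene per 1000000 UMIs of a class (CPM), with exact Poisson 95% intervals in brackets. Ratios are KO over WT library, with exact conditional binomial 95% intervals. Both cover counting error only and say nothing about other mice. A ratio was called higher or lower when it was at least 2-fold, its interval left out 1, and the gene had at least 30 UMIs over both libraries.

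In Trdc-positive T cells, 4 of the 7 factors with enough UMIs were called higher in the KO library (Maf, Rora, Zbtb16 and Sox13), beside 8.19% of the 6765 genes with enough UMIs. The SOX factors Sox4 and Sox5 were called lower, beside 9.82% of those genes. Runx3 was not called, and Etv5 had too few UMIs to be read. The median log2 ratio over the 7 factors with enough UMIs was 1.63, against -0.00423 over all genes, and the 7 values lay on both sides of 0.

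**Figure D1:**
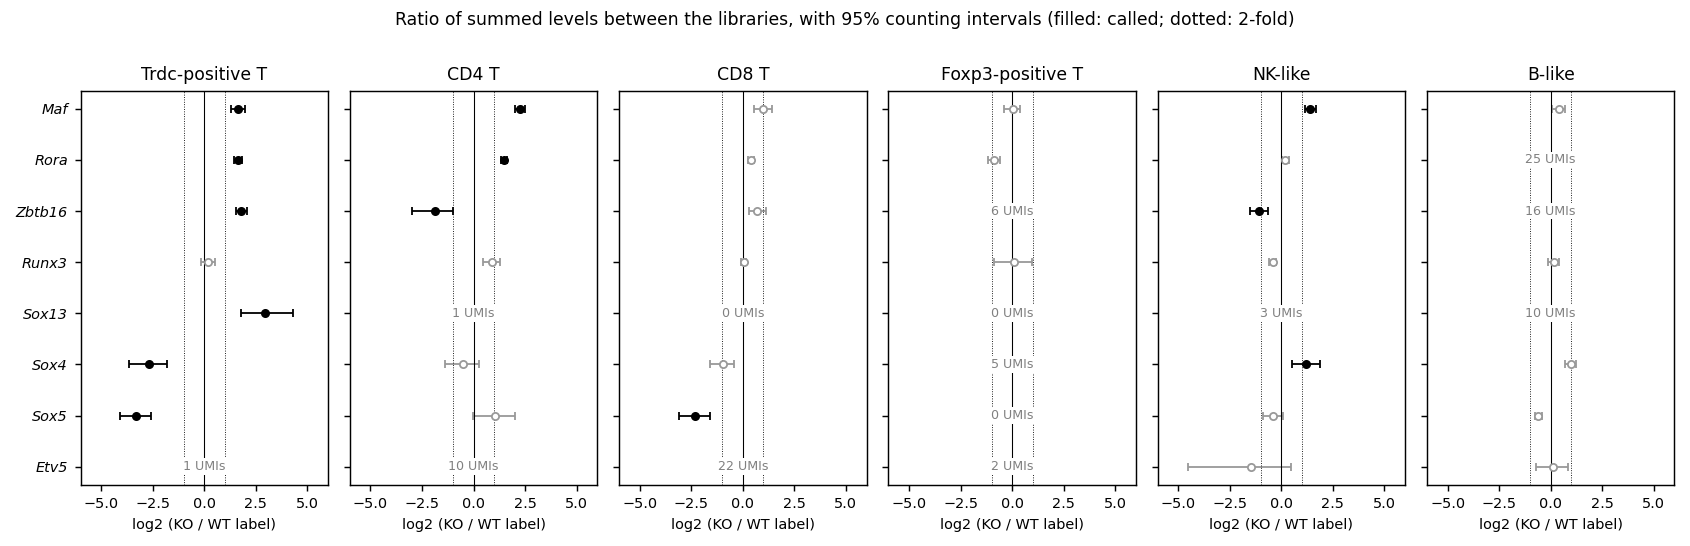
Ratio of the summed level of each factor between the libraries (x axis, log2 of GFI1 KO over WT label) in 6 cell classes, with 95% counting intervals. Filled points were called, dotted lines mark 2-fold, and a factor with fewer than 30 UMIs is given by its UMIs only. In Trdc-positive T cells Maf, Rora, Zbtb16 and Sox13 lie to the right and Sox4 and Sox5 to the left.

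Maf encodes c-MAF, a bZIP factor of effector T cells. It stood at 470.3 CPM (417 to 529) in Trdc-positive T cells in the KO library and at 152 CPM (124 to 184) in the WT library, with KO over WT at 3.10 (2.47 to 3.92). A Maf UMI was found in 68 of 94 and 35 of 110 cells. With every cell thinned to 1500 UMIs, the shares were 48.4% (37.9 to 59.0) and 17.4% (10.8 to 25.9). Endothelial-like cells, taken as a class that should lack Maf, gave 0% and 0.275% at a median depth of 3579 and 4879 UMIs, far below both. The first of these is 0 of 100 cells, which allows up to 3.0%.

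Rora encodes RORα, a nuclear receptor that is required for type 2 innate lymphoid cells. Its level was 1578 CPM (1479 to 1682) in the KO library and 509 CPM (457 to 566) in the WT library, with KO over WT at 3.10 (2.73 to 3.51). Thinned shares were 67.7% (57.3 to 77.1) and 35.8% (26.8 to 45.5), against 0.333% and 0.282% in B-like cells (median depths 3960 and 4117 UMIs). Both the share of cells and the level were thus higher in the KO library, and no interval overlapped.

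Zbtb16 encodes PLZF. The gene stood at 906 CPM (831 to 985) and 261 CPM (224 to 302), with KO over WT at 3.47 (2.93 to 4.14). Its thinned shares were 58.1% (47.4 to 68.2) and 26.6% (18.6 to 35.9). Over all cells of the γδ-like clusters in place of the Trdc gate, the log2 ratio was 0.49 against 1.80 here, and the call was lost. B-like cells had 0 UMIs in the KO library, which allows up to 1.01 CPM, and 1.56 CPM in the WT library.

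Sox13 encodes a SoxD factor that was first tied to the γδ lineage as a whole. It gave 47 UMIs in 33 cells in the KO library and 7 UMIs in 6 cells in the WT library, which are 78.4 CPM (57.6 to 104) and 10.3 CPM (4.14 to 21.2). The ratio of 7.6 (3.42 to 19.9) was the highest of the 8, with the widest interval among the called factors. After thinning, 11.8% (6.05 to 20.2) and 2.75% (0.571 to 7.83) of cells kept a UMI, intervals that overlap at this depth, whereas all cells at full depth gave 35.1% and 5.45%.

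Sox4 encodes a SoxC factor of immature T cells. It was lower in the KO library, with 13 UMIs and 21.7 CPM (11.5 to 37.1) against 94 UMIs and 138 CPM (112 to 169). Of the 13 UMIs, 12 were in 1 cell. The level in the KO library was 0.157 (0.0804 to 0.281) of that in the WT library, and 2 of 94 cells had a UMI against 25 of 110.

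Sox5, the SoxD relative of Sox13, differed most in the same direction. It stood at 30.02 CPM (17.8 to 47.4) and 296 CPM (256 to 339.8), with KO over WT at 0.101 (0.0589 to 0.164). Again 12 of its 18 UMIs in the KO library were in 1 cell, while in the WT library the highest single cell held 38 of 201. Thinned shares were 1.08% (0.0272 to 5.85) against 13.8% (7.91 to 21.7), beside 0.173% and 0.136% in alveolar macrophage-like cells (median depths 13149 and 13597 UMIs). The share for Sox4 in the same macrophage-like cells was 0.561% and 0.678%, and in Trdc-positive T cells 2.15% (0.262 to 7.55) and 13.8% (7.91 to 21.7).

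Runx3, which sets the cytotoxic program of CD8 T and NK cells, stood at 240.2 CPM (203 to 283) and 214 CPM (180.2 to 251). Its ratio of 1.12 (0.887 to 1.43) is within counting error, and the thinned shares of 24.7% (16.4 to 34.8) and 28.4% (20.2 to 37.9) overlap. Etv5, an ETS factor, gave 0 UMIs in the KO library, which allows up to 5.0 CPM, and 1 UMI in the WT library. A difference in Etv5 was not detectable at this depth.

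**Figure D2:**
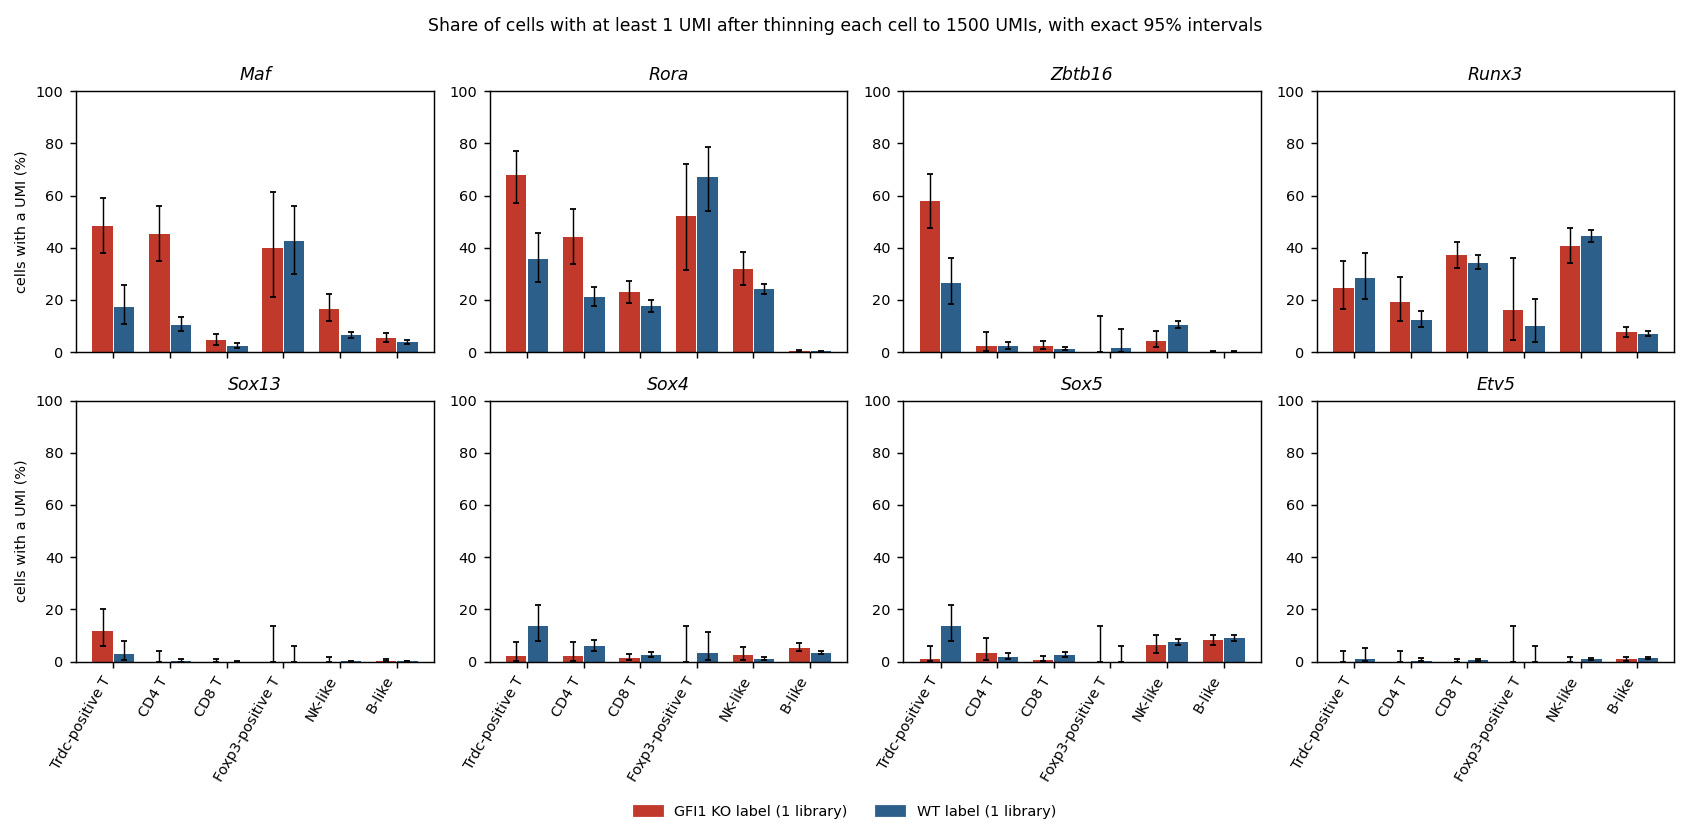
Share of cells (y axis, percent) with at least 1 UMI of each factor after thinning every cell to 1500 UMIs, in 6 cell classes and 2 libraries, with exact 95% intervals. Among these 6 classes Sox13 is seen mainly in Trdc-positive T cells, and Maf reaches 48.4% of them in the KO library against 17.4% in the WT library.

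Marker genes of other cells moved with these comparisons. In Trdc-positive T cells the 7 neutrophil markers summed to 136.8 CPM (3 detected) in the KO library and 2185 CPM (6 detected) in the WT library, with Ly6g at 0 in both. The 8 alveolar macrophage markers, all detected, summed to 1284 and 3647 CPM, and the 8 monocyte markers to 1474 and 554 CPM. The 8 NK markers, all detected, summed to 959 CPM and 2039 CPM. Of 8 ILC2 markers 4 and 5 were detected, at 886 and 118 CPM, with Il1rl1, Il5 and Il13 at 0 in both. Of 8 interstitial macrophage markers 3 and 5 were detected, at 309 and 30.9 CPM, with C1qa, Cd163 and Folr2 at 0 in both. C1qb and C1qc were also at 0 in the KO library, so its higher sum came from Cx3cr1, Ms4a7 and Apoe alone. The cycling genes, 8 and 5 of 8 detected, summed to 233 and 53.0 CPM. The part of these markers in the ratios was not tested. Scrublet called 12 of the 94 cells and 20 of the 110 cells doublets. Without them, the ratios were 2.98 (2.34 to 3.84) for Maf, 3.23 (2.83 to 3.71) for Rora, 3.45 (2.87 to 4.18) for Zbtb16 and 7.51 (3.19 to 21.5) for Sox13. Sox4 was then at 0.142 (0.0726 to 0.254) and Sox5 at 0.0668 (0.0349 to 0.117), so each of the 6 called factors kept its direction and its call.

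Further genes of the γδ lineage were read as lists. Of 12 genes of the interferon-γ (type-1) program, 0 were called higher and 8 lower, beside 8.19% and 9.82% of all genes, with a median log2 ratio of -1.31. Il12rb2, a chain of the interleukin-12 receptor, was at 0.170 (0.130 to 0.219), the chemokine gene Xcl1 at 0.182 (0.0957 to 0.322), the NK receptor gene Klrd1 at 0.311 (0.225 to 0.423), the costimulatory receptor gene Cd27 at 0.333 (0.228 to 0.477) and the chemokine gene Ccl5 at 0.473 (0.441 to 0.506). Of 20 further γδ lineage factors, 14 had enough UMIs, of which 1 was called higher and 5 lower, beside the same 8.19% and 9.82%. The 5 called lower were Lef1 (0.149, 0.120 to 0.183), Tcf7 (0.272, 0.194 to 0.374), Ikzf2 (0.418, 0.368 to 0.473), Tbx21 (0.338, 0.203 to 0.545) and Eomes (0.408, 0.224 to 0.711). Tbx21 and Eomes are also on the type-1 list. Tcf7 and Lef1 encode the HMG-box factors TCF1 and LEF1, and Tbx21 and Eomes the T-box factors of the interferon-γ program. The lists were chosen with earlier results known, and these counts are a description of 2 libraries.

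Among close relatives of the factors, of the 13 SOX genes listed, Sox13, Sox4 and Sox5 were the 3 with at least 30 UMIs. The 4 RUNX family genes (Runx1, Runx2, Runx3 and Cbfb) all had enough UMIs and 0 were called, Runx1 standing at 1424 CPM and 1556 CPM, KO over WT 0.915 (0.835 to 1.00). In the family of T cell ZBTB genes, Zbtb16 was higher while Zbtb20 and Bcl6 were lower.

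The Trdc-positive T cells were also read by cluster. The T cell compartment held 2 clusters with raised γδ receptor genes, and all 8 factors had been withheld from the genes used to cluster. Of the Trdc-positive T cells, 63 in the KO library and 16 in the WT library were in the larger γδ-like cluster, 4 and 57 in the smaller, and 27 and 37 in other clusters of the T cell compartment. Most of those 27 and 37 cells lay in clusters led by Kcnip4, Retnla, Retnlg or Ebf1, in unlike shares in each library. In the KO library they were mainly in the cluster led by Retnla, and in the WT library mainly in those led by Kcnip4 and Retnlg. In these clusters 96.3%, 64.7%, 97.9% and 75.0% of all cells, in that order, were called doublets. Within the larger γδ-like cluster, Maf stood at 765 CPM (673 to 865) and 796 CPM (589 to 1052), with KO over WT at 0.961 (0.705 to 1.33). Rora was at 1.15 (0.958 to 1.38) and Sox13 at 1.33 (0.565 to 3.83), so 3 of the 4 factors called higher over all Trdc-positive T cells had ratios whose intervals held 1 in this cluster. Zbtb16 was the exception, with 1448 CPM (1321 to 1584) against 715 CPM (519 to 959), with KO over WT at 2.03 (1.49 to 2.83).

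In the smaller cluster Sox5 stood at 621 CPM (321 to 1084) in 4 cells and 612 CPM (527 to 708) in 57 cells, with KO over WT at 1.01 (0.514 to 1.81), and Sox4 at 621 CPM (321 to 1084) and 276 CPM (220.0 to 342). Zbtb16 had 0 UMIs there in the KO library, which allows up to 155 CPM, and stood at 256 CPM (202 to 320.3) in the WT library. In the KO library these values rested on a single cell for each gene, with 12 of 12 Sox5 UMIs and 12 of 12 Sox4 UMIs.

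The larger cluster also held 78 and 52 cells outside the Trdc-positive gate. In them Trdc stood at 48.3 CPM in the KO library and at 0 UMIs in the WT library, and the αβ receptor gene Trac at 420.3 CPM and 391 CPM. Low Trdc is set by the gate, since a cell outside it lacked Trdc or also held a Cd4, Cd8a or Cd8b1 UMI. The Trdc level therefore does not tell what kind of cell these are. Zbtb16 was lower in the KO library in these cells, 1451 CPM (1328 to 1582) against 2709 CPM (2517 to 2911), with KO over WT at 0.536 (0.478 to 0.600). Maf was alike, at 1.16 (0.953 to 1.42), and so was Rora, at 1.02 (0.923 to 1.13). For Zbtb16 the cells inside and outside the gate in one cluster therefore had opposite ratios. Sox13 had 2 and 4 UMIs outside the gate against 43 and 6 inside it.

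Single Trdc-positive T cells often held several of the factors. The median number of factors with a UMI was 4 of 8 per cell in the KO library and 2 of 8 in the WT library. Maf and Zbtb16 were found together in 60 of 94 cells in the KO library, where the product of their shares gives 49.9, and in 23 of 110 in the WT library, where it gives 12.1. All 33 cells with a Sox13 UMI in the KO library also held a Zbtb16 and a Rora UMI. Sox4 and Sox5 were found together in 12 of 110 cells in the WT library, against 5 from the product of their shares, while Maf and Sox5 shared 2 cells against a product of 7. Sox13 shared 0 cells with Sox4 and 0 with Sox5 in either library. The products of their shares are at most 1.40 cells, too few for these counts to show exclusion. These are counts of cells from 1 library each, and cells of unequal depth tend to share genes.

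CD4 T cells, which carry αβ receptors, had 2 factors called in the same direction as in Trdc-positive T cells. Of 6 factors with enough UMIs, Maf and Rora were called higher, beside 4.43% of 8581 genes, and Zbtb16 lower, beside 3.44%. Maf stood at 569 CPM (500.5 to 644) and 120.2 CPM (107 to 134), with KO over WT at 4.73 (3.99 to 5.61) and thinned shares of 45.2% (34.8 to 55.8) and 10.5% (8.04 to 13.5). Rora stood at 1015 CPM (923 to 1113) and 364 CPM (341 to 388), with KO over WT at 2.79 (2.49 to 3.12). Other-cell markers differed in this gate too, with the 8 alveolar macrophage markers, all detected, at 3170 and 1411 CPM and the 7 neutrophil markers (4 and 6 detected) at 40.8 and 643 CPM, and their part was not tested. Runx3 was at 1.84 (1.39 to 2.40), under the 2-fold limit, and Sox13 gave 0 and 1 UMIs. Sox4 at 0.705 (0.383 to 1.21) and Sox5 at 2.06 (0.969 to 4.07) were not called. Sox5 thus pointed opposite to Trdc-positive T cells, with an interval that held 1.

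The makeup of the CD4 gate differed between the libraries. A cluster led by Il1rl1, Itgb8 and Fbn2 took 46 of 95 cells (48.4%) in the KO library and 73 of 527 (13.9%) in the WT library, and a cluster led by St8sia6, Ly6c1 and Khdrbs3 took 33 (34.7%) and 388 (73.6%). Within the first, Maf was at 1150.4 CPM (999 to 1318) and 521 CPM (446 to 605), with KO over WT at 2.21 (1.79 to 2.72), and Rora at 1751 CPM (1563 to 1955) and 1569 CPM (1436 to 1711), with KO over WT at 1.12 (0.967 to 1.29). Within the second, Maf was at 146 CPM (86.3 to 230.2) and 37.9 CPM (28.8 to 48.9), with KO over WT at 3.84 (2.13 to 6.61), from 18 and 59 UMIs, and Rora at 0.529 (0.169 to 1.27). The Maf ratio was thus above 2-fold in both clusters, with an interval in the first that reached below 2-fold. The Rora ratio of the whole gate was seen in neither. Sox5 in the second cluster was at 3.88 (1.52 to 8.82), from 8 and 26 UMIs. Foxp3 was also among the leading genes of the first cluster, where Maf was at 0.866 (0.648 to 1.15) in Foxp3-positive T cells. In the remaining T cells of that cluster Maf was at 0.869 (0.648 to 1.16).

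Zbtb16 in the CD4 gate rested on few cells. It gave 10 UMIs in 4 of 95 cells and 216 UMIs in 23 of 527 cells, 22.7 CPM (10.9 to 41.7) against 84.0 CPM (73.2 to 96.0), with KO over WT at 0.270 (0.127 to 0.506). In the WT library 98 of its UMIs came from 8 cells of the smaller γδ-like cluster and 86 from 2 cells of the larger one, with 52 in 1 cell. Thinned shares of 2.15% (0.262 to 7.55) and 2.30% (1.19 to 3.98) were alike. In the cluster led by Il1rl1, Itgb8 and Fbn2 the direction was the other way, with 8 Zbtb16 UMIs in the KO library and 0 in the WT library.

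In CD8 T cells, of 6 factors with enough UMIs, 0 were called higher and 1 lower, beside 3.14% and 2.58% of 10291 genes. That factor was Sox5, at 7.62 CPM (4.44 to 12.2) and 37.5 CPM (32.9 to 42.6), with KO over WT at 0.203 (0.116 to 0.332). Within the CD8 cluster led by 1700062C10Rik, Ccr9 and Slc6a19, which took 120 and 882 cells and 172 of the 237 UMIs in the WT library, it was at 0.425 (0.200 to 0.80), and in that led by Gzmk, Esm1 and Ccl5 at 0.143 (0.0165 to 0.562). Maf was at 1.95 (1.44 to 2.64) and Sox4 at 0.506 (0.329 to 0.755), both just inside the 2-fold limit. Within the first of these clusters, which held 27 of 29 and 117 of 162 Sox4 UMIs, Sox4 pointed the other way, at 1.69 (1.07 to 2.58), and Maf was at 3.88 (2.02 to 7.20). Maf was at 1.66 (0.930 to 2.92) in the cluster led by Gzmk. It was at 0.782 (0.214 to 3.13) in a cluster led by Ifngas1, Gzmm and Dlg5. That cluster took 40.9% of the CD8 T cells in the KO library and 6.62% in the WT library, and held 0 and 1 Sox5 UMIs. The first cluster took 29.8% and 71.2%. In the clusters led by Retnla and Kcnip4, Maf was at 0.771 (0.244 to 2.33) and 5.73 (0.656 to 68.6). Runx3 was even, at 315 CPM (292 to 339) and 307 CPM (294 to 321), and Zbtb16 stood at 37.2 CPM (29.6 to 46.1) and 22.8 CPM (19.2 to 26.9). Of its UMIs, 61 of 83 in the KO library came from 6 cells of the larger γδ-like cluster, and 66 of 144 in the WT library from 5.

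Foxp3-positive T cells had Maf at the same level in both libraries, 616 CPM (490.1 to 765) and 607 CPM (525 to 699), with KO over WT at 1.01 (0.774 to 1.32) in 26 and 61 cells. Of 3 factors with enough UMIs 0 were called in either direction, beside 3.63% higher and 6.45% lower of 3255 genes. Rora pointed down, from 1564 CPM (1429.7 to 1708) to 857 CPM (707 to 1029) in the KO library, with KO over WT at 0.548 (0.443 to 0.673). In the cluster led by Il1rl1, Itgb8 and Fbn2, which held 21 and 45 of these cells, Rora was at 0.442 (0.350 to 0.554) and Maf at 0.866 (0.648 to 1.15). Rora was therefore past 2-fold lower within that cluster. Maf in Foxp3-positive cells had the highest value of the T cell gates in each library. In the KO library its interval overlapped those of CD4 T cells and Trdc-positive T cells.

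The remaining T cells, which passed none of the gates, had 6 factors with enough UMIs. Of these, Maf was called higher (2.62, 2.28 to 3.0), beside 4.0% of 9929 genes, and Sox5 lower (0.312, 0.171 to 0.530), beside 4.95%. Rora at 1.90 (1.76 to 2.06) and Zbtb16 at 1.98 (1.78 to 2.19) fell just short of 2-fold. These cells lay in different clusters in each library, since the larger γδ-like cluster took 67 of 230 (29.1%) in the KO library and 45 of 749 (6.01%) in the WT library, and the smaller one took 3 and 81. The γδ receptor genes summed to 249 and 91.9 CPM. Within the larger γδ-like cluster Maf was at 1.06 (0.860 to 1.31), Rora at 0.975 (0.870 to 1.09) and Zbtb16 at 0.572 (0.505 to 0.648). Of the 163 Sox5 UMIs of these cells in the WT library, 92 came from the smaller γδ-like cluster. Maf was at 3.24 (1.63 to 6.17) in the cluster led by St8sia6 and at 0.869 (0.648 to 1.16) in that led by Il1rl1.

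NK-like cells had 2 of 7 factors with enough UMIs called higher, Maf and Sox4, beside 3.38% of 9903 genes, and Zbtb16 called lower, beside 4.62%. The Maf call was lost with each library clustered on its own, where its log2 ratio was 0.47 against 1.40 here. Maf stood at 149.9 CPM (127 to 176) and 56.9 CPM (51.7 to 62.4), with KO over WT at 2.64 (2.18 to 3.17) and thinned shares of 16.6% (11.8 to 22.3) and 6.46% (5.42 to 7.63). Sox4 gave 26 and 86 UMIs, 25.3 CPM (16.5 to 37.1) and 10.9 CPM (8.75 to 13.5), with KO over WT at 2.31 (1.43 to 3.62), opposite in direction to Trdc-positive T cells. Its thinned shares of 2.37% (0.774 to 5.44) and 1.06% (0.657 to 1.62) overlap.

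Zbtb16 was also opposite, at 43.8 CPM (32.0 to 58.6) and 92.3 CPM (85.7 to 99.2) in NK-like cells, with KO over WT at 0.475 (0.343 to 0.642) and thinned shares of 4.27% (1.97 to 7.94) and 10.5% (9.23 to 12.0). The median depths were 5525 and 4177 UMIs. Among the ranked classes Runx3 was highest here in both libraries, at 325 CPM (291 to 362) and 435 CPM (420.2 to 449.5). In the KO library its interval overlapped those of dendritic-like, CD8 T and monocyte-like cells. The Runx3 ratio, KO over WT, was 0.748 (0.667 to 0.837). Rora was at 1.13 (1.01 to 1.27) and Sox5 at 0.760 (0.542 to 1.04).

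B-like cells had 0 of 5 factors called, beside 1.24% higher and 1.14% lower of 10402 genes. Sox5 stood at 101 CPM (90.0 to 113) and 154 CPM (146 to 161), with KO over WT at 0.658 (0.580 to 0.745). Sox4 stood at 56.8 CPM (48.6 to 66.1) and 29.0 CPM (25.8 to 32.5), with KO over WT at 1.96 (1.61 to 2.37), inside 2-fold. Rora was near 0, with 9 and 16 UMIs.

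**Figure D3:**
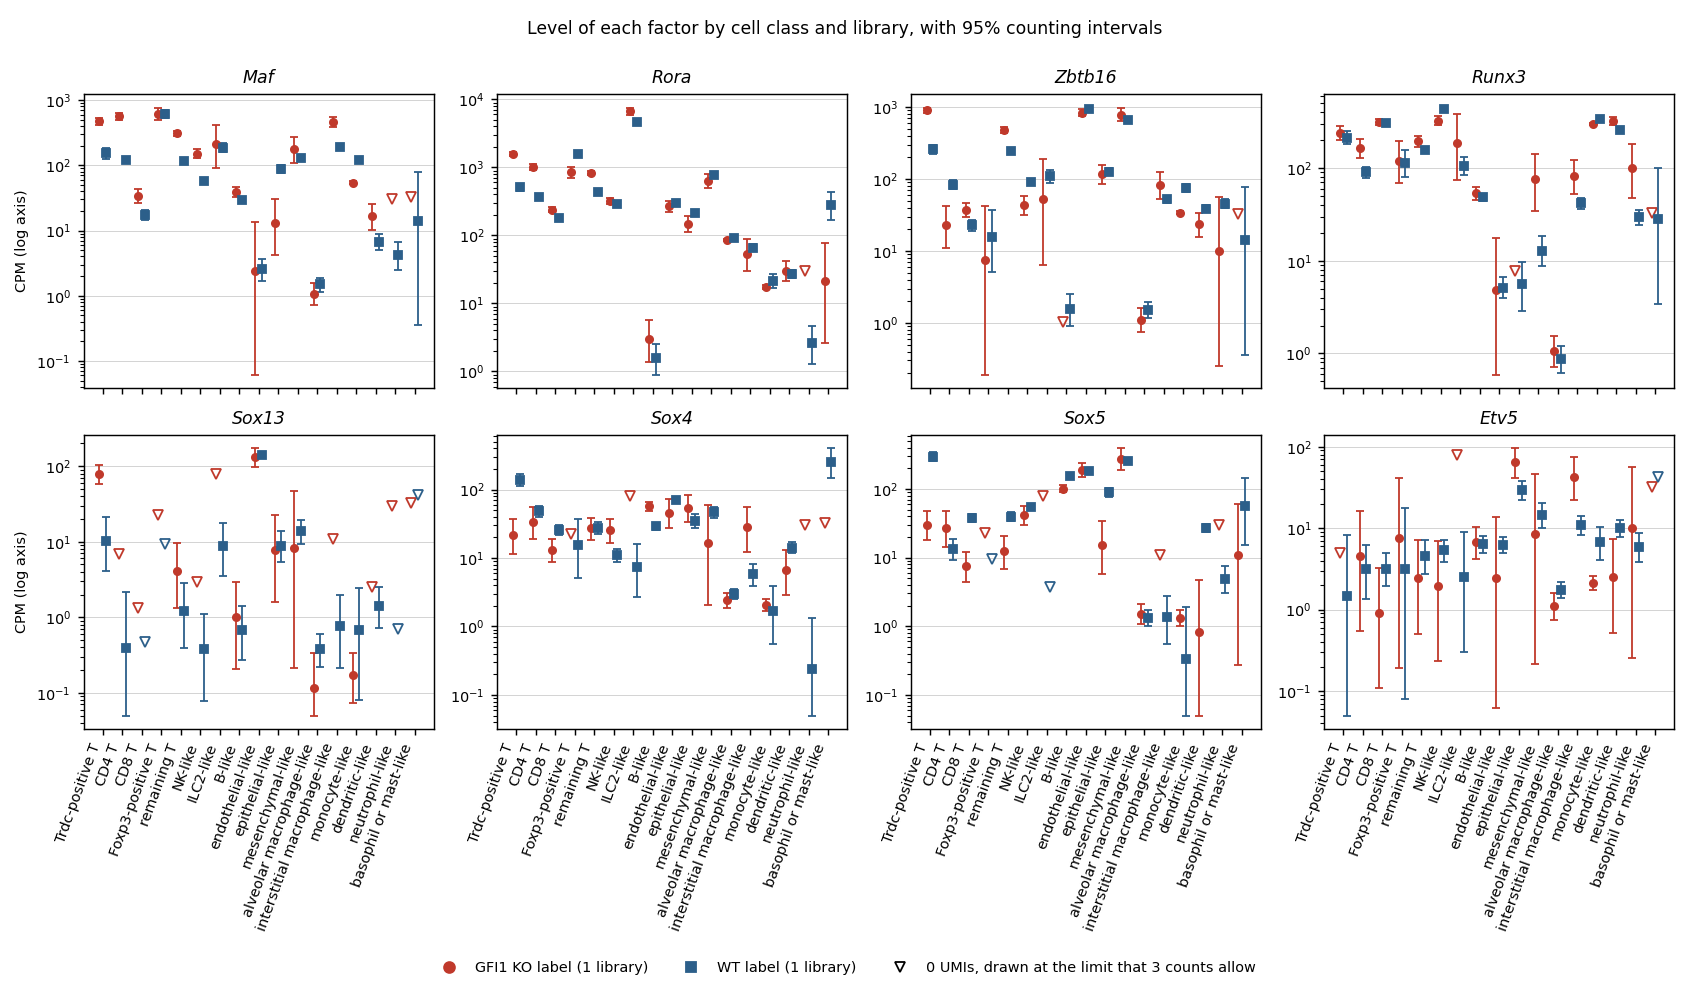
Level of each of the 8 factors (y axis, CPM on a log axis) by cell class (x axis) in the libraries labelled GFI1 KO and WT, with exact 95% Poisson intervals. Open triangles mark 0 UMIs at the limit that 3 counts allow. Sox13 and Zbtb16 stand high in endothelial-like cells of both libraries, and Rora is highest in ILC2-like cells.

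Across the classes with at least 50 cells, 10 in the KO library and 16 in the WT library, the order of the levels differed by factor. The orders of the libraries cover unlike sets of classes. Not ranked in the KO library were Foxp3-positive T (26 cells), interstitial macrophage-like (27), mesenchymal-like (22), epithelial-like (40), ILC2-like (9) and neutrophil-like cells (8). Zbtb16 in the KO library was highest in Trdc-positive T cells, followed by endothelial-like cells at 835 CPM (749 to 929), and these neighbours overlapped. In the WT library endothelial-like cells came first at 929 CPM (912 to 946), then mesenchymal-like cells at 653 CPM (621 to 686), with Trdc-positive T cells at rank 3 and not separated from the remaining T cells at 243 CPM (229 to 259). In endothelial-like cells the ratio of Zbtb16 was 0.899 (0.805 to 1.00).

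Sox13 was highest in endothelial-like cells, 132 CPM (98.8 to 172) and 142 CPM (136 to 149), with KO over WT at 0.924 (0.691 to 1.21). Trdc-positive T cells came second in the KO library, where the intervals of these neighbours overlapped, and at rank 3 in the WT library after mesenchymal-like cells at 13.7 CPM (9.45 to 19.3). In the other T cell and NK-like classes it gave at most 5 UMIs in either library. Sox5 in the WT library was highest in Trdc-positive T cells, overlapping with mesenchymal-like cells at 253 CPM (233 to 274). In the KO library it was highest in endothelial-like cells, at 190.0 CPM (150.2 to 237), followed by B-like cells.

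Sox4 in the WT library was highest in Trdc-positive T cells, apart from endothelial-like cells in second place at 71.1 CPM (66.4 to 76.1). In the KO library B-like and endothelial-like cells led, and each of the 10 classes overlapped with the next. Maf was led by CD4 T cells and then by Trdc-positive T cells in the KO library, with overlapping intervals. The 26 Foxp3-positive T cells of that library, which were not ranked, stood at 616 CPM. In the WT library Foxp3-positive T cells came first and apart, then interstitial macrophage-like cells at 193 CPM (181 to 205) and ILC2-like cells at 186 CPM (158 to 218).

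Among the ranked classes Rora was highest in Trdc-positive T cells in the KO library, where only 9 ILC2-like cells were found and not ranked. Those cells had a Rora log2 ratio, KO over WT library, of 0.52, which puts their level above that of Trdc-positive T cells. In the WT library ILC2-like cells stood apart at 4678 CPM (4529.6 to 4829), with Foxp3-positive T cells second and Trdc-positive T cells at rank 4 after mesenchymal-like cells. Runx3 was shared by NK-like, monocyte-like, dendritic-like and CD8 T cells, and Trdc-positive T cells were at rank 5 in both libraries. Etv5 was highest in epithelial-like cells in the WT library, at 29.2 CPM (22.5 to 37.4).

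Outside the T, NK-like and B-like cells the factors were called in several classes, some of them with few KO cells. In interstitial macrophage-like cells, 27 of them in the KO library, Maf (2.40, 1.98 to 2.88), Etv5 (3.90, 1.91 to 7.36) and Sox4 (4.94, 1.96 to 11.04) were called higher, beside 6.11% of genes, and 0 lower, beside 6.95%. In dendritic-like cells Maf was called higher (2.48, 1.40 to 4.23), beside 1.43% of genes. Etv5, Sox4 and Sox5 were called lower there, beside 6.07%, and Sox5 gave 1 UMI in the KO library and 210 in the WT library.

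Monocyte-like cells had Maf (0.455, 0.407 to 0.510), Zbtb16 (0.451, 0.392 to 0.521) and Etv5 (0.317, 0.195 to 0.541) called lower, beside 5.0% of genes, and 0 factors higher, beside 4.22%. The cluster with granule genes made up 1956 of the 4792 monocyte-like cells in the KO library and 6 of 419 in the WT library. Epithelial-like cells, 40 of them in the KO library, had Etv5, a factor of alveolar type II cells, called higher (2.20, 1.33 to 3.55), beside 2.25%. Maf (0.147, 0.0472 to 0.349) and Sox5 (0.173, 0.0626 to 0.383) were called lower there, beside 11.8%. The median log2 ratio of all genes in epithelial-like cells was -0.22. These classes hold subsets of cells in unlike shares, whose part was not tested.

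In mesenchymal-like cells, 22 of them in the KO library, Runx3 was called higher, from 9 and 31 UMIs, beside 2.29% of genes, and 0 factors lower, beside 3.13%. In neutrophil-like cells, 8 of them in the KO library, Runx3 was called higher (3.39, 1.59 to 6.45), beside 8.04%, and 0 factors lower, beside 12.3%. In endothelial-like cells 0 factors were called, beside 1.63% higher and 2.46% lower. The same held for ILC2-like cells (3.66% and 3.74%), alveolar macrophage-like cells (0.404% and 3.76%) and basophil or mast-like cells (7.45% and 11.6%).

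Cells of clusters that could not be named had Sox5 (248 and 5383 UMIs, 0.0968, 0.0849 to 0.110) and Sox13 (0.109, 0.0647 to 0.172) called lower, beside 12.8% of genes, and 0 factors higher, beside 1.93%. They are a mixture of clusters, and the share of each was not compared.

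The genes whose pattern over 26 class-by-library points was most like that of a factor were found by Pearson's r of log2(CPM + 1), among 16315 genes. Sox13 was followed by Jcad (r = 0.93), Il17rc (0.90) and Mpped2 (0.90), and Zbtb16 by Pde5a (0.85), Abi3bp (0.81) and Glis3 (0.79). Runx3 was followed by Itgb7 (0.94), Rnaset2a (0.92) and Ptpn18 (0.91), and the genes most like Rora included Rab4a (0.86) and Dnaja4 (0.84). Sox4 was followed by Zfp68 (0.86), Agk (0.86) and Wasl (0.85), and Sox5 by Zfp273 (0.84), Tmem218 (0.80) and Armcx2 (0.80). Maf and Etv5 had the loosest fits, with Smad3 (0.77), Rasgrp1 (0.73) and Ndfip1 (0.73) for Maf and Smpd3 (0.75), Etv1 (0.75) and Azin2 (0.75) for Etv5. The points share 2 libraries and are not independent, so r is a description.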

How the data were processed

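The members and the gene lists were chosen with earlier results of these data known. The authors deposited unnormalized UMI counts by gene and called cell, 1 matrix per library. The submitters' processing notes name Cell Ranger 9.0.1 and the builds GRCm39 and mm39. The study's methods describe 2 samples per genotype, and 1 of each was used here. Predicted (Gm), ribosomal and mitochondrial genes, 9538 in all, were left out of the totals (18.9% and 16.4% of UMIs). Cells were clustered without the 8 factors and the list genes (94 genes withheld) on 2000 variable genes, 50 components and 15 neighbours at Leiden resolution 0.8 (scanpy 1.11.5, leidenalg 0.10.2, Python 3.11.15). Clusters were named from marker lists, and Scrublet doublets stayed in except where stated.

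UMI sums were taken for each class in each library, and intervals were computed with scipy 1.17.1. The calling step was tested on Poisson counts simulated from the summed profile of Trdc-positive T cells. Such counts lack the clumping of UMIs in single cells, so the calls were not checked against it. With 1 library a group no p-value was computed. Named genes were the 8 factors, up to 5 called genes of each list in each direction by the interval bound nearer to 1, their families, and the 3 genes most like each factor. Antibody tags served only as an alternative gate and to count tag-positive cells among the Trdc-positive T cells. Some listed genes, a list and a split of the cells that used it are not reported here.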

Additional observations from a re-analysis of the deposited data

Results flagged for a closer look

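Both flagged factors had ratios that pointed opposite ways in separate cell classes, with 1 library per group, and the differences were not tested. The log2 ratio (KO over WT library) of Sox4 was 1.21 in NK-like cells and -2.67 in Trdc-positive T cells. That of Zbtb16 was 1.80 in Trdc-positive T cells, -1.89 in CD4 T cells and -1.07 in NK-like cells. In the CD4 gate of the WT library, 98 and 86 of 216 Zbtb16 UMIs came from 8 and 2 cells of the γδ-like clusters. In the CD4 cluster led by Il1rl1, Itgb8 and Fbn2, Zbtb16 gave 8 UMIs in the KO library and 0 in the WT library. With thinned counts the CD4 call was lost.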

How the results depend on the processing

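Values are log2 ratios in Trdc-positive T cells unless a class is named, and the cause of each shift was not tested. With T cells taken by a Cd3e UMI, Maf was at 2.02 and Zbtb16 at 1.43, and the factors called were 1 lower in Foxp3-positive, 2 lower in CD4, and 1 higher and 4 lower in CD8 T cells. With Cd4, Cd8a and Cd8b1 UMIs allowed, Sox4 was at -1.54 and Sox5 at -2.44. Over the γδ-like clusters in place of the Trdc gate, Sox4 was at -1.73, Zbtb16 at 0.49, Runx3 at -0.27 and Rora at 1.16. With gates from antibody tags 2 factors were called lower in CD4 T cells, and with all genes in the total 2 were called lower in CD8 T cells. With thinned counts, Sox5 was at -4.41, and the factors called were 1 lower in Foxp3-positive, 0 lower in CD4, 1 higher in CD8 T cells and 1 higher in B-like cells. With each library clustered on its own, Zbtb16 was at 1.43, 2 factors were called lower in CD8 T cells, and 1 higher and 3 lower in NK-like cells. At resolution 0.5, 2 were called higher in CD8 T cells, and at 1.2, Zbtb16 was at 1.55 and 2 were called lower in CD8 T cells. With at least 10 UMIs, 2 other γδ lineage factors were called higher. Without thinning, the difference in the share of cells was 29.7 points for Sox13 and -20.6 points for Sox4.

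The next alternatives, and the values by cluster within the other T cell gates, were added after seeing the data. Within the larger γδ-like cluster alone, Maf was at -0.057, Sox13 at 0.42, Zbtb16 at 1.02, Runx3 at -0.28 and Rora at 0.20, with 1 factor called higher and 0 lower. Rora in CD4 T cells was at -0.92 within the cluster led by St8sia6. No paired analysis was possible because each group had 1 library and no result came from a test. Depth limits Etv5, Sox13 and Sox4 most, since each rested on few UMIs in Trdc-positive T cells.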
